A study of Mus musculus with 6 samples.

Results

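The striated-muscle myosin heavy chains were followed in the gastrocnemius of aged and young male mice. They were represented by all probe sets that the platform's gene table gives to exactly 1 of 7 genes, Myh7, Myh2, Myh1, Myh4, Myh3, Myh8 and Myh6. That rule found 11 probe sets of 45037, and it used no measured value. A further 2 probe sets are shared by Myh7 and Myh6 and were therefore no members. The arrays were 3 of aged muscle (replicates 51, 52 and 53) and 3 of young muscle (replicates 1, 2 and 3), all from males that the labels call C57B1/6 with a normal karyotype. No treatment or allele is named, the labels state no ages, and they do not say whether each array holds the muscle of another animal. The p-values therefore rest on the spread among these 6 arrays, which may be technical.

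A myosin heavy chain is the motor of the thick filament: its head splits ATP and pulls on actin, and its tail packs into the filament. Each adult muscle fibre makes mainly 1 heavy chain, and that chain sets how fast the fibre shortens. In rodents Myh7 marks slow fibres, Myh2 fast oxidative type 2A fibres, Myh1 type 2X fibres and Myh4 the fastest, glycolytic type 2B fibres, which fill most of the mouse gastrocnemius. Myh3 and Myh8 are the embryonic and neonatal chains, which reappear when fibres regenerate, and Myh6 is the alpha chain of the heart.

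The genes lie in 2 clusters. In the RefSeq gene order of assembly GRCm38.p6 the chromosome 11 cluster runs Myh3, Myh2, Myh1, Myh4 and Myh8, with Myh13 beyond Myh8 and the noncoding RNA gene Myhas between Myh1 and Myh4, and Myh6 and Myh7 lie together on chromosome 14. The RefSeq promoter table (GRCm38.p6, 250 bases before to 50 after each start site) held all 7 genes. The longest run of letters common to the promoters of Myh2, Myh1, Myh4 and Myh8 was 14 bases long, and it is shown because Myh2, which fell in aged muscle, shares it with Myh1 and Myh4, which did not pass. The windows below are 80 bases from the plus strand, with the shared run in capitals.
Myh2: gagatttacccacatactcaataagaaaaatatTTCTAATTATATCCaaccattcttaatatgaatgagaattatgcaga
Myh1: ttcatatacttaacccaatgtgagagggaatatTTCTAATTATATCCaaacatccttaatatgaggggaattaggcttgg
Myh4: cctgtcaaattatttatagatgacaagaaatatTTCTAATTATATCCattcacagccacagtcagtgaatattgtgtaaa
Myh8: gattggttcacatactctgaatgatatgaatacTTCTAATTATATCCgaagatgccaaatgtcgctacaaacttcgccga
The windows lie at chr11:67170869-67170948 for Myh2, chr11:67199909-67199988 for Myh1, chr11:67237621-67237700 for Myh4 and chr11:67277037-67277116 for Myh8. The run begins 125, 160, 158 and 54 bases before the start site in that order. On either strand it occurred in 4 of 32851 promoters (0.0122%), those same 4, from which it was derived, and not in those of Myh3, Myh7 or Myh6.

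The Myh7 promoter (chr14:54994577-54994876, minus strand, the outer of 2 listed starts) is shown because Myh7 had the largest change of the tested members. Capitals mark the M-CAT motif, CATTCC on either strand, which TEAD factors bind.
Myh7: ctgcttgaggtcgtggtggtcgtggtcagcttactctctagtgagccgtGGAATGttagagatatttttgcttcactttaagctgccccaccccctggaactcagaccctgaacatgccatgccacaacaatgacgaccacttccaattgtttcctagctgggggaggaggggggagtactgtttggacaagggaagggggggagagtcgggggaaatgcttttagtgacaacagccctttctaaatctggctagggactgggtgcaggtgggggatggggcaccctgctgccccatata
M-CAT was present in 4 of the 7 promoters (Myh7, Myh6, Myh1 and Myh4) and in 14.7% of all promoters. The letters of the TATA box, TATAAA on either strand, were in 6 of the 7 windows, all but that of Myh7, and in 13.6% of all. Their place differed between genes. The only match began at base -29 from the start site in Myh3 and at -96 in Myh8. In Myh2 and Myh6 it lay after the listed start site, at bases 11 and 2. For Myh7 only the window of the outer of 2 listed starts was searched. Whether any of these matches works as a TATA box was not tested. The MEF2 consensus was in those of Myh1, Myh4 and Myh8 and in 3.19% of all, and each of these 3 matches also holds a TATAAA.

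Each array gave 1 MAS5 signal per probe set, with array medians from 635 to 832. Levels here are log2 signals, a difference of 1 being a factor of 2 in signal, and changes are aged minus young with limma's standard error (n = 3 per group). Signals of different probe sets are not set against each other, because each binds its own target with its own strength. Skeletal muscle markers were bright in every array: the summed signal of Ckm, Acta1, Des, Ryr1, Pygm and Mb was 400513 to 440687 in aged muscle and 579688 to 713138 in young muscle. Of 5 cardiac markers, Myh6 included, 3 (Nppa, Myl7 and Tnni3) lay below the brightness filter, a mean log2 signal of 9.08. For Nppa all aged arrays lay above the young ones (means 10.02 and 7.57), while Myl7 and Tnni3 overlapped.

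Myh7 and Myh2, the heavy chains of slow and type 2A fibres, fell in aged muscle. Myh4, the chain of type 2B fibres, did not pass, with a change of -0.15. Of the 11 probe sets 9 were bright enough to be tested, 2 fell, 0 rose and 7 did not pass. Of all 22519 tested probe sets 1.05% passed, 0.742% as lower and 0.311% as higher in aged muscle. On 4 of the 9, those of Myh7 and Myh2 and both bright ones of Myh1, the aged arrays lay wholly below the young ones, as on 8.74% of all tested probe sets (7.41% the other way, 16.2% in both directions). The change was negative on 8 of the 9, against 49.5% of all tested.

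Myh7 had log2 signals of 8.34, 11.45 and 7.72 in aged replicates 51, 52 and 53, against 13.36, 14.25 and 13.94 in young replicates 1, 2 and 3. The groups did not overlap, and aged replicate 52 stood well above the other aged arrays, which lay below the brightness filter. Its mean was 9.17 ± 2.00 in aged and 13.85 ± 0.45 in young muscle (SD), a 25.6-fold lower signal in aged muscle (-4.68 ± 0.74, limma adjusted p = 0.00719). With a pseudocount of 219, which damps dim signals, the change was -4.07. In RNA of whole muscle, fewer slow fibres and less Myh7 RNA per fibre cannot be told apart.

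The spread of Myh7 among aged arrays bears on its test. Without aged replicate 52 the change was -5.82, and without young replicate 2 it was -4.48 and did not pass (limma adjusted p = 0.0533). A first fluidics station handled the young arrays and aged replicate 51, and a second one, under another protocol name, aged replicates 52 and 53. Within the first station, which holds a single aged array, the difference was -5.51, given without a test because the aged arrays spread more than the young ones. A fit on 6 arrays with a station term gave the same estimate. The second station holds no young array, so that estimate too rests on aged replicate 51 alone. The log2 ratio of 3 prime to 5 prime control signal, a sign of RNA quality, was 2.11, 2.00 and 2.86 on the aged arrays and 1.71, 1.77 and 1.75 on the young arrays. Adding that ratio to the model left Myh7 at -2.96, which missed the threshold (limma adjusted p = 0.228). A fit whose prior spread does not depend on brightness gave an adjusted p of 0.257 in limma.

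The probe set shared by Myh7 and Myh6 that was bright enough to be tested had 11.55, 10.39 and 9.54 in aged muscle and 12.29, 11.90 and 11.97 in young muscle. All aged arrays lay below all young ones, but replicate 52 was not the highest aged array here. The change of -1.56 ± 0.47 did not pass (limma adjusted p = 0.214). The other shared probe set was dim, with means of 6.84 in aged and 5.61 in young muscle.

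Myh2 had log2 signals of 15.64, 14.92 and 15.39 in aged muscle and 17.86, 17.91 and 17.31 in young muscle. The groups lay far apart and each was tight. The mean was 15.32 ± 0.37 in aged and 17.69 ± 0.33 in young muscle (SD), 5.19-fold lower in aged muscle (-2.38 ± 0.25, 95% interval -2.92 to -1.83, limma adjusted p = 0.000497). Within the first station Myh2 was at -2.05, a difference that rests on a single aged array and is given without a test. With the RNA quality covariate Myh2 was at -2.50 (limma adjusted p = 0.0122). Leaving out any 1 array gave -2.57 to -2.18, and Myh2 passed each time. It missed the threshold only where the prior spread did not depend on brightness (limma adjusted p = 0.179). Myh2 had a single probe set, so no second one could be set beside it.

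**Figure D1:**
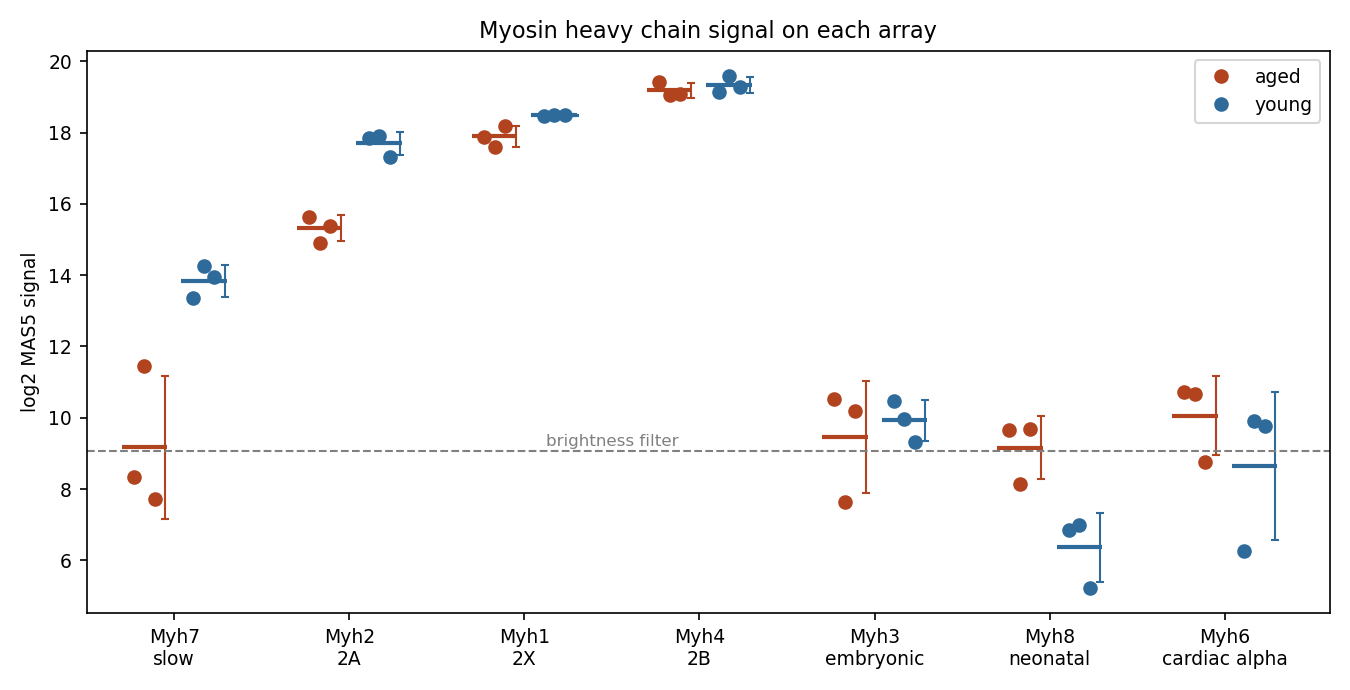
Log2 MAS5 signal (vertical axis) of the brightest probe set of each myosin heavy chain gene on each of the 3 aged (left, red) and 3 young (right, blue) arrays, with bars for the mean, whiskers for the SD and a dashed line at the brightness filter of 9.08. For Myh7, Myh2 and Myh1 the aged points lie below all young ones, for Myh8 above, and heights of different genes are not comparable.

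Myh1, the type 2X chain, had 3 probe sets, all with lower means in aged muscle. Its brightest gave 17.88, 17.61 and 18.19 in aged muscle and 18.47, 18.50 and 18.50 in young muscle. The groups did not overlap, but the change was small, -0.59 ± 0.23 (95% interval -1.10 to -0.08, unadjusted p = 0.0259, limma adjusted p = 0.406). The second bright probe set gave 17.69, 17.34 and 17.99 in aged muscle and 18.11, 18.25 and 18.25 in young muscle, again without overlap. Its change was -0.53 ± 0.24 and did not pass (limma adjusted p = 0.487). The third, far dimmer one overlapped between groups (-0.44 ± 0.51). The brightest probe set carries the suffix of designs that can bind other transcripts, and its source record is also that of the Myhas probe set. Myhas had 15.06, 15.22 and 14.84 in aged muscle and 15.31, 16.01 and 15.72 in young muscle (-0.64 ± 0.23, limma adjusted p = 0.336).

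Myh4, the type 2B chain, had 19.42, 19.04 and 19.08 in aged muscle and 19.14, 19.58 and 19.27 in young muscle. The groups overlapped, and the 95% interval of the change, -0.71 to 0.41, leaves room for a fall of up to 1.63-fold or a rise of up to 1.33-fold. This was the probe set of rank 4 in brightness among all 45037, where array signals can flatten, which was not tested. The same limit holds for both bright Myh1 probe sets, of ranks 34 and 47, and for ratios over Myh4 or Myh1. The other Myh4 probe set was dimmer and had 14.38, 13.67 and 13.98 in aged muscle and 14.96, 14.83 and 13.96 in young muscle. Its groups overlapped as well, and its change was -0.58 ± 0.29 (limma adjusted p = 0.536).

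**Figure D2:**
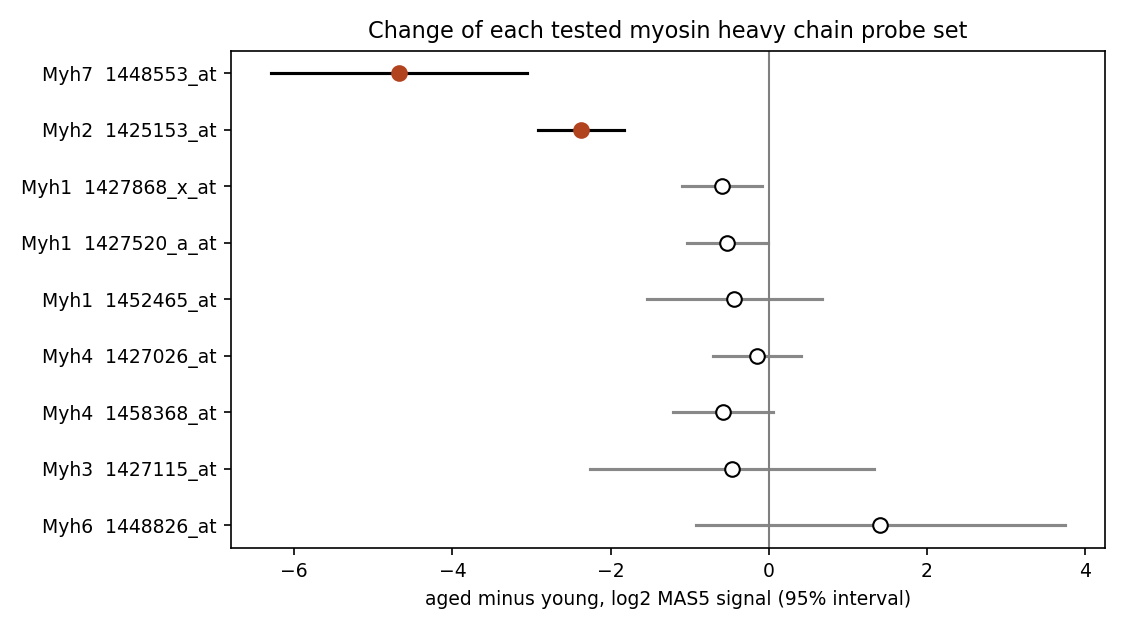
Aged minus young difference in log2 MAS5 signal (horizontal axis) with its 95% interval from limma for each of the 9 tested probe sets, filled where the adjusted p was below 0.05. Only Myh7 at -4.68 and Myh2 at -2.38 are filled, and the intervals of Myh3 and Myh6 are wide.

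Of the developmental chains, neonatal Myh8 was higher in aged muscle by its values, but dim. It had 9.66, 8.14 and 9.69 in aged muscle and 6.86, 7.0 and 5.24 in young muscle. The groups did not overlap, yet only 2 of the 6 values reached the brightness filter, and the probe set was not in the main test. Fitted over all probe sets its change was 2.80 ± 1.19, with an unadjusted p of 0.0286 and a limma adjusted p of 0.556, and with the pseudocount it was 1.39. In that fit 0.588% of probe sets passed, and on 13.2% of them the groups did not overlap.

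Embryonic Myh3 had 10.54, 7.65 and 10.20 in aged muscle and 10.48, 9.97 and 9.32 in young muscle. The groups overlapped, and aged replicate 52 was lowest (-0.46 ± 0.82, limma adjusted p = 0.877). Without aged replicate 52 the change was 0.45, and within the first station it was 0.61. Of 12 tested genes of immature or denervated fibres 0 rose, 1 fell and 11 did not pass (median change 0.17, against 0.0079 over all tested probe sets). The one that fell was Actc1, the cardiac and fetal actin (-3.38 ± 0.27, limma adjusted p = 4.54e-05), which did not pass with a prior spread independent of brightness.

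Myh6 had 10.73, 10.67 and 8.77 in aged muscle and 6.26, 9.91 and 9.77 in young muscle on its brighter probe set. The groups overlapped, and young replicate 1 was far below the other young arrays (1.41 ± 1.07, limma adjusted p = 0.693). Its other probe set was dim and not tested, with means of 7.64 in aged and 7.53 in young muscle.

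Ratios of isoforms within an array are free of its scaling, and only their change between groups is read here. Of 9 ratios 5 did not overlap between the groups, 4 lower and 1 higher in aged muscle, while 16.2% of all tested probe sets did not overlap. They reuse the signals of Myh7, Myh2 and the dim Myh8, so they are not 5 separate results. Each of these 5 reached an exact permutation p of 0.1 (two-sided), the smallest that 3 arrays against 3 can give. The exact permutation test could thus pass none of them, and adjusted over the 9 ratios these p-values were 0.18.

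The log2 ratio of Myh7 to Myh4 was -11.08, -7.59 and -11.36 in aged muscle and -5.78, -5.33 and -5.33 in young muscle. It was lower on every aged array, with a mean change of -4.53. That of Myh2 to Myh4 was -3.78, -4.13 and -3.69 in aged muscle and -1.28, -1.67 and -1.96 in young muscle. The groups were again apart, with a change of -2.23 (4.68-fold lower in aged muscle), which was -1.80 with the second Myh4 probe set. The ratio of Myh1 to Myh4 changed by -0.44, with overlapping groups (exact permutation p = 0.2), and by -0.02 with the second Myh4 probe set.

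The ratio of type 2A to type 2X chain, Myh2 over Myh1, was -2.24, -2.69 and -2.80 in aged muscle and -0.61, -0.59 and -1.19 in young muscle. The aged arrays all lay lower, with a mean change of -1.78 (3.44-fold) and one of -1.85 with the second Myh1 probe set. Within the first station this change was -1.45. Myh7 over Myh1 changed by -4.09 without overlap. Myh7 over Myh2 was -7.30, -3.46 and -7.67 in aged muscle and -4.50, -3.66 and -3.37 in young muscle. Aged replicate 52 fell among the young arrays, so a greater fall of Myh7 than of Myh2 was not shown (change -2.30, exact permutation p = 0.3). Over Myh4, Myh8 changed by 2.95 without overlap, and by 1.54 with that pseudocount. Myh6 and Myh3 over Myh4 overlapped, with changes of 1.56 and -0.31.

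**Figure D3:**
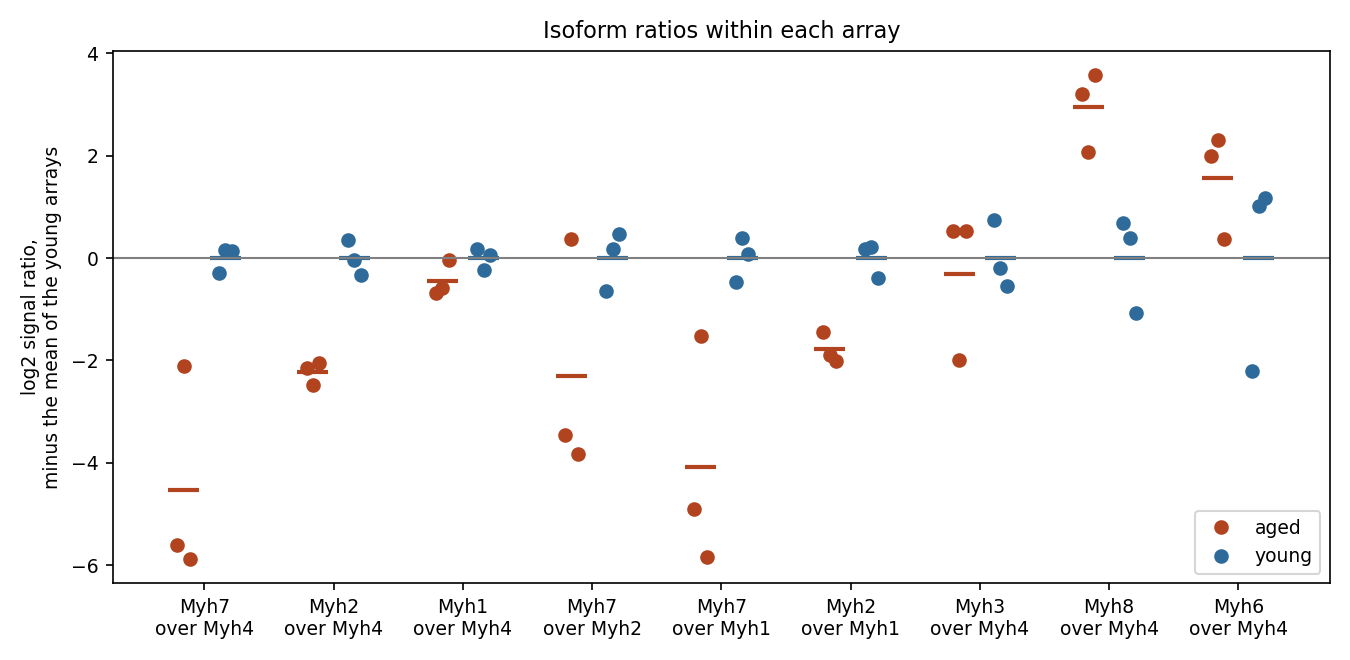
Log2 ratio of 2 heavy chain signals within each array, minus the mean of the young arrays (vertical axis), for the 9 ratios, with aged arrays left in red and young arrays right in blue and bars for the means. The groups are apart for Myh7 and Myh2 over Myh4, Myh7 and Myh2 over Myh1, and Myh8 over Myh4.

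Genes that work with the slow chain fell beside it. Of 11 tested contractile genes of slow fibres 8 fell, 0 rose and 3 did not pass, with a median change of -2.63, and the groups did not overlap on any of the 11. With a prior spread independent of brightness 4 of them fell. Over all tested probe sets 1.05% passed and 16.2% did not overlap, shares to set beside the counts of every gene list here. Of the light chains that sit on the Myh7 head, Myl3 was at -4.24 ± 0.33 and Myl2 at -3.69 ± 0.27. Tnnt1, slow troponin T, was at -4.77 ± 0.51, and Csrp3, a Z-disc protein rich in slow fibres, at -3.55 ± 0.61 (limma adjusted p of all 4 genes at most 0.012). The level of Myl2 was 11.50, 11.18 and 11.85 in aged muscle and 14.79, 15.44 and 15.38 in young muscle. Here aged replicate 52, the highest of the aged arrays for Myh7, was the lowest. Tnnt1 had 7.38, 8.23 and 9.27 in aged muscle and 12.87, 13.26 and 13.08 in young muscle, where aged replicate 53 was highest. Its other aged values lay below the brightness filter, which it passed through the young arrays, so the size of its change is uncertain. The slow list was chosen with earlier results of these arrays known, and its count is no independent evidence.

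Of 12 tested contractile genes of fast fibres 1 fell, 0 rose and 11 did not pass, with a median change of -0.61, and 11 of the 12 had a negative change. The groups did not overlap on 9 of them, against 16.2% of all tested probe sets. Some, such as Tnnc2 (means of 19.11 in aged and 19.24 in young muscle), are bright enough that array signals can flatten, which was not tested. The one that fell was Myl1, the essential light chain of fast fibres (-1.04 ± 0.22, limma adjusted p = 0.0428), which did not pass on the first station alone, with either covariate, with a prior spread independent of brightness, after median centring, or without aged replicate 51, aged replicate 52 or any 1 young array. Without aged replicate 53, 3 genes of the list passed. Among the 9 tested myosin light chains 3 fell, namely Myl3, Myl2 and Myl1, and 0 rose. These 3 are already counted in the slow and fast lists.

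Thick filament partners did not pass: of 7 tested 0 passed, at a median of -0.52. The brightest were Myom2, an M-band protein (-0.07 ± 0.26), and Ttn, titin (-0.11 ± 0.24). Of 7 tested genes of myosin folding and turnover 1 rose and 6 did not pass, all 7 with a positive change (median 0.40). The one that rose was Fbxo32, a ubiquitin ligase of muscle atrophy (2.86 ± 0.39, limma adjusted p = 0.0027), which did not pass on the first station alone, with either covariate or with a prior spread independent of brightness. The chaperone Unc45b, which folds the myosin head, was at 0.40 ± 0.24, and Trim63, the ligase that marks thick filament proteins for breakdown, at 0.30 ± 0.26. Neither passed.

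Of 30 tested regulators of fibre type 0 rose, 1 fell and 29 did not pass, at a median of -0.02. Rcan1, an inhibitor of calcineurin whose transcription calcineurin and NFAT raise, had 11.82, 11.40 and 11.94 in aged muscle and 13.16, 13.22 and 13.09 in young muscle. The groups were well apart (-1.43 ± 0.26, limma adjusted p = 0.0191). It did not pass within the first station, with either covariate, with a prior spread independent of brightness, after median centring, or without aged replicate 52 or any 1 young array. Of 4 other tested heavy chains of this class, Myh7b, Myh9, Myh10 and Myh14, 0 passed, though 1 passed with array weights and 1 without aged replicate 51. Myh9, a chain of non-muscle cells, had the lowest adjusted p, with a change of -1.01 ± 0.24 (limma adjusted p = 0.0847). That was its brightest probe set. Its others disagreed, with changes of -2.33, -0.91, -0.21 and 1.51, and none of them passed.

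**Figure D4:**
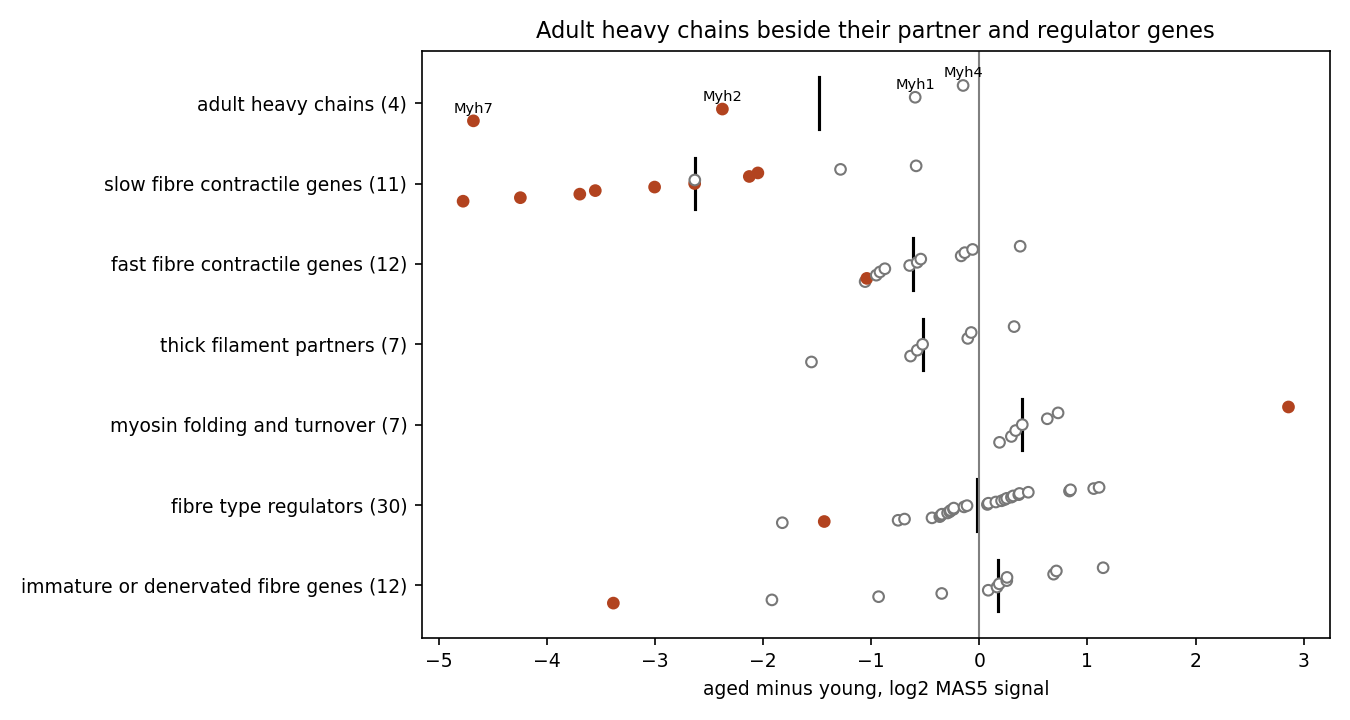
Aged minus young change in log2 MAS5 signal (horizontal axis) for each tested gene of the adult heavy chains and of 6 gene lists, 1 point per gene, filled where the limma adjusted p was below 0.05, with a vertical bar at each median. Slow fibre genes spread around -2.63 and fibre type regulators around -0.02.

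Some markers of other cells differed between the groups as well, with 1 gene passing in each of the fibroblast, fat cell and smooth muscle lists. The summed signal of fibroblast markers was 52347 to 66241 in aged muscle and 305173 to 587295 in young muscle, a sum led by Col1a1 (-5.71 ± 0.32). The other 3 fibroblast markers, Thy1 (-1.14), Dcn (-0.73) and Pdgfra (-0.23), did not pass. That of 2 fat cell markers was 16074 to 25927 in aged muscle and 5805 to 9090 in young muscle, and Adipoq was at 1.89 ± 0.30. The other fat cell marker, Lep, overlapped between the groups and did not pass (0.20). Smooth muscle markers summed to 27814 to 30975 in aged muscle and 50952 to 61688 in young muscle, a sum led by Acta2 (-1.0 ± 0.19). Of the other smooth muscle markers Tagln did not pass (-1.16), and Cnn1 (1.33) and Myh11 (0.40) were below the filter. The summed signals of macrophage markers overlapped (58111 to 89703 in aged muscle, 49984 to 69040 in young muscle). So did those of endothelial markers (4491 to 8921 and 5084 to 6734) and cardiac markers (3224 to 7130 and 1494 to 4384). The sums of blood markers overlapped too (1971 to 4292 in aged muscle, 1669 to 2235 in young muscle), with Hba-a1 and Alas2 below the filter. Those of the satellite cell markers Pax7 and Myf5 overlapped as well (419 to 2143 in aged muscle, 1974 to 2401 in young muscle). Taken alone, Pax7 was lower on all aged arrays (log2 6.69 to 9.54, against 9.92 to 10.29) but did not pass (-1.87). Ptprc, the blood marker above the filter, was higher on all of them (10.66 to 11.27, against 10.35 to 10.58) and did not pass (0.60). The 1 Schwann cell marker with a probe set, S100b, lay at 860 to 1324 in aged muscle and 1515 to 1955 in young muscle. The part of these shifts in the changes of the heavy chains was not tested.

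The genes whose profile over the 6 arrays was nearest to a heavy chain were ranked by the root mean square difference of mean-centred log2 signals among 11757 genes. Because they were picked for likeness on these same arrays, their changes and calls follow from that choice and are no independent evidence. For Myh2 they were Lmod2, a leiomodin of muscle thin filaments (0.17), 9530068E07Rik (0.25) and Arsi, an arylsulfatase (0.26). Lmod2 fell by 2.15 on the log2 scale (± 0.33, limma adjusted p = 0.00541). For Myh7 they were the membrane glycoprotein Gpm6b (1.03), the transporter Abcc5 (1.11) and Mfap5, a microfibril protein (1.16), of which only Mfap5 passed (-2.94 ± 0.59, limma adjusted p = 0.0327). Mfap5 had a mean of 8.66 in aged and 11.60 in young muscle and reached the filter through the young arrays. In all 3 of these aged replicate 52 was the highest aged array, as for Myh7, which follows from ranking by likeness to Myh7. For Myh1 they were Septin7 (0.05), Smarcd2 (0.06) and Camkk2 (0.07), none of which passed.

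**Figure D5:**
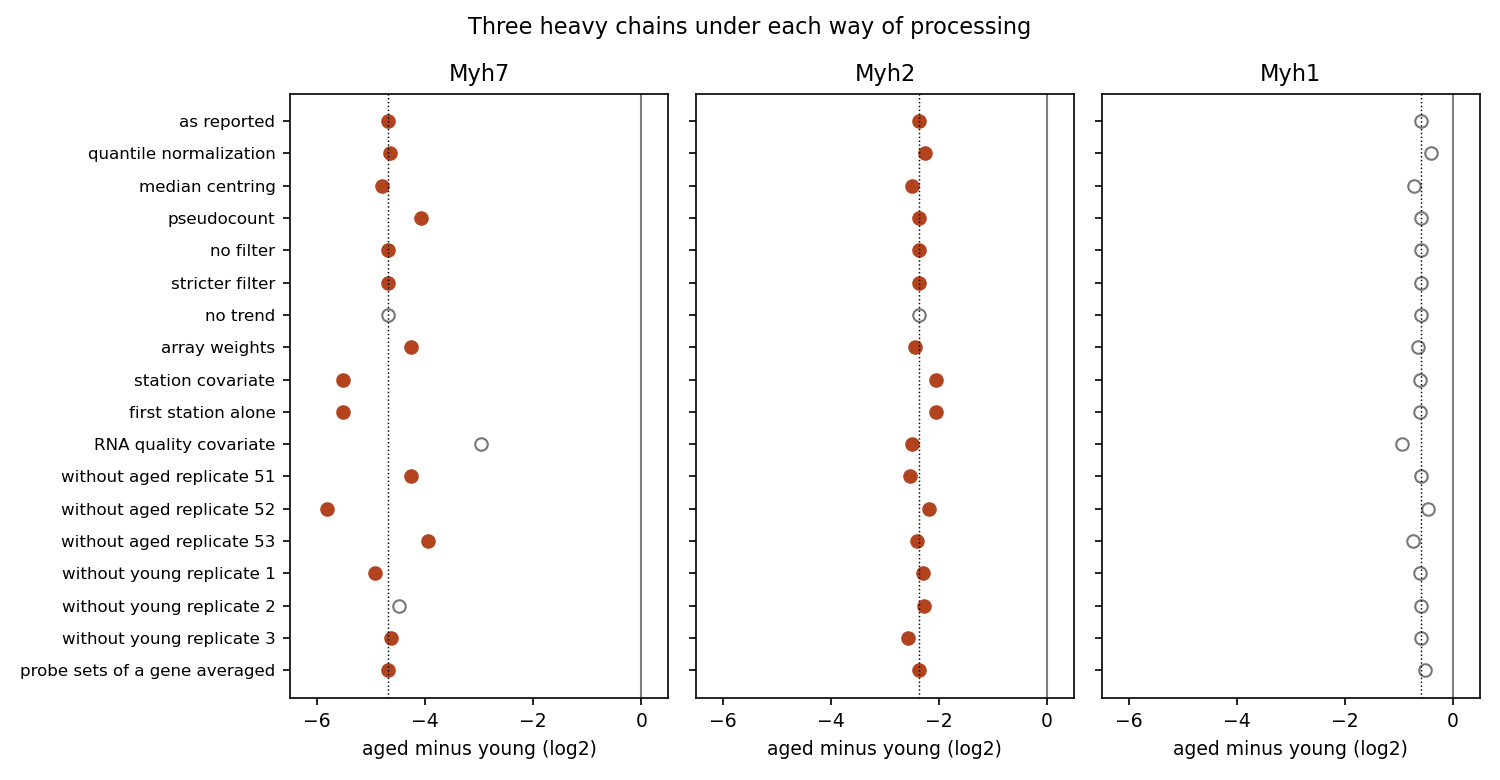
Aged minus young change in log2 MAS5 signal (horizontal axes) of Myh7, Myh2 and the brightest Myh1 probe set under each way of processing (rows), filled where the limma adjusted p was below 0.05, with a dotted line at the reported value. Myh2 stays between -2.57 and -2.05, Myh7 runs from -5.82 to -2.96, and Myh1 is open in every row.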

How the data were processed

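Total RNA was labelled and hybridised to 6 Affymetrix Mouse430_2 arrays, as the deposited run settings name them. The authors' deposited values are linear MAS5 intensities per probe set, per the submitters' processing notes, with version and settings not given in the sources used here. Their mean after trimming 2% at each end was 1500 on every array, so levels are relative to the array's total. The run settings were used for chip type, fluidics station and protocol name only. Intensities were taken to log2, 64 control probe sets were left out, and probe sets with a mean log2 signal below the median, 9.08, were not tested. The other 22519 were fitted with limma 3.58.1 in R 4.3.3 (lmFit, eBayes with trend, two-sided, Benjamini-Hochberg, threshold 0.05), and the steps were tested on simulated data. The simulated spread followed brightness, as that fit assumes, so the simulation could not test this assumption. A gene was represented by its brightest probe set. Isoform ratios were compared by exact permutation over arrays. Alternatives changed the scaling, filter, pseudocount, spread model, array weights, covariates (station, RNA quality), arrays included and probe sets used. Named genes were all members, up to 4 called genes of each list or otherwise its 2 brightest, and the 3 nearest genes of Myh7, Myh2 and Myh1. Unc45b, Trim63, Myh7b, Myh14, Myhas and other markers were named after their values were seen. Members and lists were chosen with earlier results of these data known. Arrays hold no counts, so the number of arrays limits the precision. Figures used matplotlib 3.10.9 in Python 3.11.15.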

Additional observations from a re-analysis of the deposited data

How the results depend on the processing

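Myh2 kept its direction in 17 of 17 alternatives and its call in 16, and Myh7 kept its direction in 17 and its call in 14. Much of the agreement in direction was fixed beforehand. The filter, the prior spread and the averaging of probe sets leave the estimate of a gene with 1 probe set unchanged. Dropping 1 array cannot reverse groups that do not overlap. The station term and the first station alone give the same estimate. With a prior spread independent of brightness 21 of all probe sets passed in place of 237, and 0 heavy chain probe sets (Myh2 at -2.38, limma adjusted p = 0.179, and Myh7 at -4.68, adjusted p = 0.257) and 4 partner or regulator genes in place of 12. With the RNA quality covariate 138 probe sets passed, 1 of them a heavy chain, and on the first station alone 365. Leaving out 1 array gave 124 to 342 probe sets (131 without young replicate 1, 124 without young replicate 2, 152 without young replicate 3 and 149 without aged replicate 52), 1 to 2 heavy chain probe sets and 9 to 16 partner or regulator genes. The ratio of Myh2 to Myh1 was -1.45 on the first station alone, and that of Myh8 to Myh4 was 1.54 with the pseudocount. With the second Myh4 probe set Myh2 over Myh4 was -1.80 and Myh1 over Myh4 was -0.02. Without passing, Myh4 and Myh3 changed sign on the first station alone (0.09 and 0.61), and Myh3 also without aged replicate 52 (0.45). Median centring moved the median of all tested probe sets to -0.11, where Myh7 was at -4.79 and Myh2 at -2.49. No paired analysis was possible because the groups share no replicate numbers. The cause of these differences was not tested. Dim members, Myh8 and 1 Myh6 probe set among them, could not be judged at this signal.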
